A study of Mus musculus with 13 samples.

Results

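The arrays compared here hold RNA from 4 samples labelled stalk and 3 samples labelled as a control of mouse retina without vasculature, 7 of the 13 arrays in the series. They were chosen by their titles. The other 6 arrays, labelled tip, enter the choice of each gene's probe, the filter on dim genes and the estimate of each gene's spread. A few of their values are set beside the stalk values. Samples were labelled with Cy5 (red) and set against Universal Mouse Reference RNA, a commercial pool of mouse RNA, in Cy3 (green), with the dyes never swapped. The labels give no strain, age, genotype or treatment, and they do not say how the samples were collected or which came from the same animal. The p-values therefore measure the spread between these samples, part of which may be technical. A value below is a log2 ratio of sample over reference after normalization, and a difference is the stalk mean minus the nonvascular mean on that log2 scale. Errors on group means are SDs over arrays (n = 4 stalk, n = 3 nonvascular), and errors on differences are standard errors.

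The retina is neural tissue that is fed in part by its own vessels. Those vessels spread across it as sprouts, in which tip cells lead and stalk cells follow, form the tube and divide. Retinal endothelium seals its junctions and limits transcytosis, which makes the blood-retina barrier, and pericytes wrap it from outside in a shared basement membrane. Astrocytes lay the bed on which the first vessels grow, and Norrin from Mueller glia acts on the receptor Frizzled-4 of the endothelium. The comparison of stalk with nonvascular retina addresses which transcripts distinguish the tissue labelled as vessel stalk from the retina without vessels.

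In stalk samples, genes of endothelium, pericytes, basement membrane and cell division were higher, and genes of ganglion cells, synapses and neuronal RNA-binding proteins were lower, than in nonvascular retina. Of 32041 genes tested, 3609 (11.3%) were called higher and 5952 (18.6%) lower in stalk, 9561 (29.8%) in all, by limma at an adjusted p under 0.05. By at least 2-fold, 1227 (3.83%) were higher and 1908 (5.95%) lower, and by at least 16-fold, 28 were higher and 6 lower. The median difference over all genes was −0.003, with quartiles of −0.178 and 0.114. Without collapsing probes to genes, 4201 of 41158 probes (10.2%) were higher and 7122 (17.3%) were lower. The value of a gene is that of its brightest probe, and probes of a gene often disagreed. Of 121 called list or named genes with several probes, 69 had another probe that was not called, among them Cdh5, Cavin1, Cav1, Jag1, Pdgfra, Irf1, Syt1, Snap25 and Syt13. Of 85 such genes not called, 26 had another probe that was called. The arrays of the groups did not overlap for 5113 genes (16%) that lay higher and 6825 genes (21.3%) that lay lower in stalk. Among all genes tested, 283 were well above background in red on all nonvascular arrays and on no stalk array, and 5 the reverse. The stalk arrays were dimmer. Of all non-control spots, 85% to 91.8% were well above background in red on stalk arrays and 91% to 94.6% on nonvascular arrays. In whole samples, fewer cells of a type and less RNA per cell cannot be told apart.

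**Figure D1:**
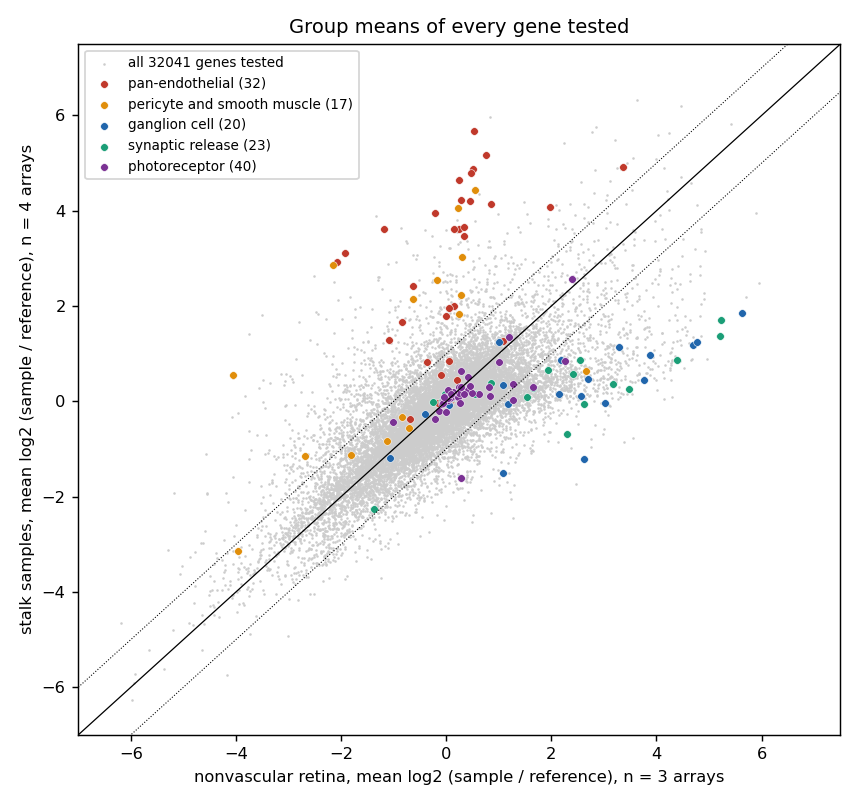
Mean log2 ratio of sample over reference in stalk samples (vertical axis, n = 4) against nonvascular retina (horizontal axis, n = 3) for each of the 32041 genes tested (grey) and for members of 5 gene lists (coloured, numbers tested in brackets). The solid line marks equal means and the dotted lines a 2-fold difference. Most pan-endothelial genes lie above the lines, ganglion cell and synaptic release genes below them, and most photoreceptor genes near equality.

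Some arrays stood apart, and array brightness moved with the groups. Median red signals, after background, were 98.1 to 141 on stalk arrays and 166 to 282 on nonvascular arrays, without overlap. All 7 arrays were scanned on the same day with the stalk arrays before the nonvascular arrays, and the order of scanning cannot be told apart from the group. In a principal component analysis of the 7 arrays the leading component (81.3% of variance) placed nonvascular arrays at −73.7 to −50.2 and stalk arrays at 43.4 to 58.2. The value of −50.2 belongs to nonvascular replicate 3, on which 138 genes lay more than 1 from their group mean, against 12 and 34 genes on the other nonvascular arrays. Of the genes called higher, 72.2% lay higher on replicate 3 than on the mean of the other nonvascular arrays. Of the genes called lower, 75.3% lay lower there. Without it, 3371 genes were higher and 5657 lower in stalk, and 1433 were higher by at least 2-fold. On stalk replicate 3, 57 genes lay more than 1 from the group mean, among them several neuronal genes described below.

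The sequence before the start of the leading genes was searched for motifs. Promoter sequences came from RefSeq (build GRCm38.p6) and were found for 12950 of 16282 tested genes with a symbol. The motif AGGAAG, which contains the GGAA core read by ETS transcription factors, was searched on both strands from 250 bases before to 50 bases after the first listed start. It was present in 33.4% of the genes tested, in 34.6% of those called higher and in 31.4% of those called lower. Among genes changed by at least 4-fold it was present in 92 of 194 higher genes (47.4%) and in 60 of 219 lower genes (27.4%). The E-box CAGCTG, a motif of helix-loop-helix factors, was present in 15.3% of the genes tested, in 16% of the 194 and in 18.7% of the 219. TAATCC, the motif of the photoreceptor factor Crx, was in 6.26%, 6.19% and 3.2% of the same sets. In all 27025 promoters of the table the shares were 35.1%, 16.1% and 7.16%. No test was made, and a match is not evidence of a bound site. The stretches below, 100 bases each and all before the start, are shown because their genes are among the 12 largest differences in a direction and hold AGGAAG (Flt1, Foxf2, Cd34 and Nid1, higher) or CAGCTG (Celf3, Ina and Rab6b, lower). Capitals mark, on either strand, only the motif searched for that gene, AGGAAG in the higher and CAGCTG in the lower genes. The stretch of Ina also holds AGGAAG on the opposite strand, left in small letters. Each stretch is written 5′ to 3′ on the strand of its gene.
Flt1 (chr5:147726012-147726111, minus strand): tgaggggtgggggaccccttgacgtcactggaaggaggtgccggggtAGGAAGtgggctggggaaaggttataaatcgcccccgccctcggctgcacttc
Foxf2 (chr13:31625640-31625739, plus strand): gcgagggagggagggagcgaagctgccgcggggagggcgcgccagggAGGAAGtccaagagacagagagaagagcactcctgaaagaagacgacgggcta
Cd34 (chr1:194938632-194938731, plus strand): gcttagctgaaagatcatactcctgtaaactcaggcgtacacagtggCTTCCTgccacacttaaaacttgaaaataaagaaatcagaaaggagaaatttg
Nid1 (chr13:13437445-13437544, plus strand): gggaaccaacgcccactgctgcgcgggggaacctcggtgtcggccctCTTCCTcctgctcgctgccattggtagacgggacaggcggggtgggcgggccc
Celf3 (chr3:94482568-94482667, plus strand): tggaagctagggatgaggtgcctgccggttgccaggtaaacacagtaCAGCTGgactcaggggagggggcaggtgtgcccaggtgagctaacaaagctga
Ina (chr19:47014499-47014598, plus strand): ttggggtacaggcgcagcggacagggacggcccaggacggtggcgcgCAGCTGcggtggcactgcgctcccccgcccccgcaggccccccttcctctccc
Rab6b (chr9:103111955-103112054, plus strand): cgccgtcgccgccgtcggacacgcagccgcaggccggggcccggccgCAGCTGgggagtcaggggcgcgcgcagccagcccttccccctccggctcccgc
For single genes only the 250 bases before the start were searched. These letters were not found there in Prnd, Foxc1 and Lsr (AGGAAG) or in Elavl2, Ndrg4, Mllt11, Synpr, Syt1 and Slc32a1 (CAGCTG). No promoter was available for the leading genes Cd93, Pdgfrb, Mgp, Icam2, Thbd, Syt13, Mapt and Thy1, which were not searched.

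Pan-endothelial genes gave the clearest rise. Of 32 tested, of 34 listed, 28 were higher in stalk (87.5%, against 11.3% of all genes) and 0 lower. The median difference was 3.09, or 2.05 with the mean of each gene's probes. For every list below, the shares of all genes to set beside its counts are 11.3% higher and 18.6% lower. The list median was 3.24 to 3.36 on the stalk arrays and 0.01 to 0.20 on the nonvascular arrays. Flt1, the receptor that binds VEGF and limits its signal, stood at 2.96, 3.21, 3.07 and 3.24 in stalk and at −1.78, −2.29 and −1.71 in nonvascular retina. All stalk arrays lay far above all nonvascular arrays, and the difference was 5.05 ± 0.13, or 33.1-fold (adjusted p = 1.41e-10). Cd93, a lectin-like receptor of endothelium, was at 5.51 to 5.89 in stalk and at 0.02, 0.72 and 0.81 in nonvascular retina (35.8-fold, adjusted p = 2.23e-07). The adhesion molecule gene Cd34 differed by 5.01 ± 0.16 and Icam2, which lies at endothelial junctions, by 4.80 ± 0.14. Cdh5, the cadherin of endothelial junctions, was at 4.14, 4.00, 4.33 and 4.37 in stalk and at 0.32, 0.34 and 0.67 in nonvascular retina. It was 13.6-fold higher, with no overlap between the groups (3.77 ± 0.19, adjusted p = 2.15e-08). The SoxF factor genes rose together, by 4.16 for Sox7, 3.95 for Sox17 and 3.13 for Sox18.

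Kdr, the main signalling receptor for VEGF, showed a smaller difference and unequal controls. It was at 4.90, 4.78, 5.10 and 4.87 in stalk and at 2.92, 2.97 and 4.20 in nonvascular retina. Nonvascular replicate 3 thus lay between the other controls and the stalk arrays, and the difference of 1.55 ± 0.25 (adjusted p = 0.000331) was 1.97 without it. At the brightest probe, the members not called were Tek (0.23, adjusted p = 0.217), Clec14a (0.19, 0.203), Pecam1 (0.12, 0.333) and Erg (−0.05, 0.735). The other probe of Clec14a was higher by 1.25 (adjusted p = 0.00333). The probe of Pecam1, a defining endothelial marker, was at −0.13 to 0.15 in stalk and at −0.26 to −0.09 in nonvascular retina. With the background offset used here, a probe that is dim in both channels has a log2 ratio near 0.

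**Figure D2:**
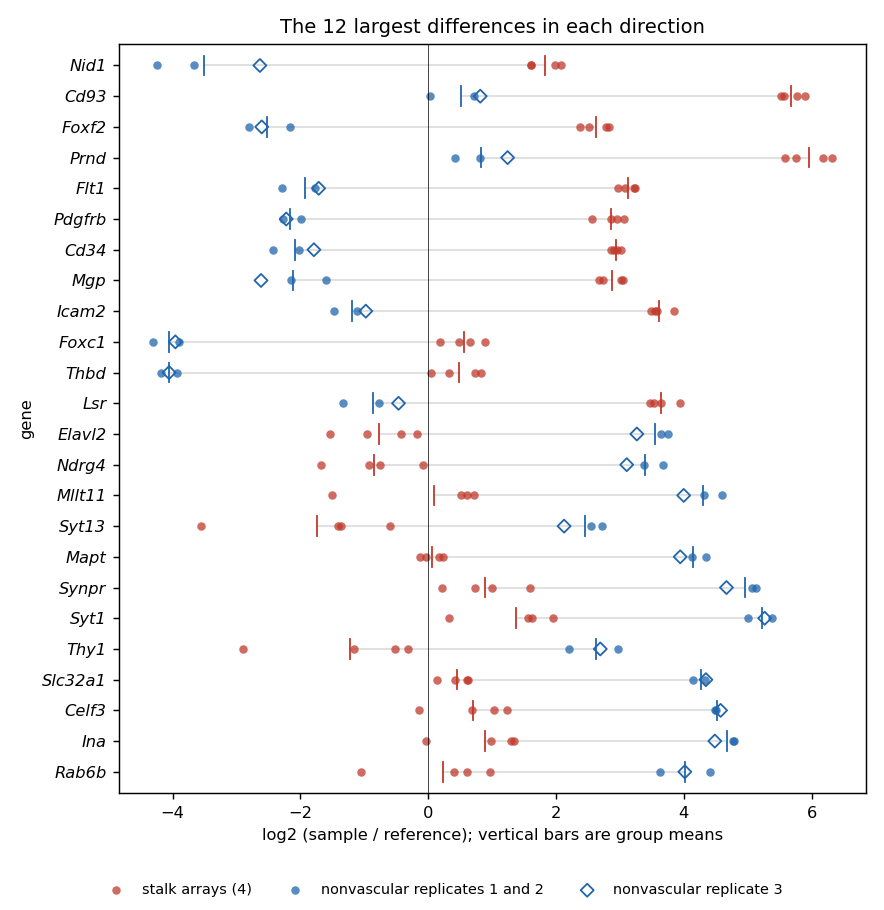
Log2 ratio of sample over reference (horizontal axis) on each of the 4 stalk arrays (red) and 3 nonvascular arrays (blue, replicate 3 as an open diamond) for the 12 genes with the largest called difference in each direction. Vertical bars are group means. No gene overlaps between the groups, and stalk replicate 3 lies lowest for most of the lower genes.

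Genes of the blood-retina barrier were higher. Of 22 tested, of 24 listed, 15 were higher (68.2%) and 1 lower, with a median difference of 1.28, or 0.70 with the mean of each gene's probes. Mfsd2a, the lipid transporter that restrains transcytosis, was at 3.34, 3.81, 3.85 and 3.35 in stalk and at −0.40, −0.72 and −0.10 in nonvascular retina. That is 16-fold (4.00 ± 0.18, adjusted p = 1.02e-08). Lsr, a protein of junctions where 3 cells meet, was at 3.47 to 3.94 in stalk and at −1.34, −0.77 and −0.46 in nonvascular retina (22.7-fold, adjusted p = 1.11e-08). The forkhead factor gene Foxf2, a regulator of brain pericytes and vessels, was at 2.51, 2.38, 2.83 and 2.79 against −2.80, −2.16 and −2.60. Its difference of 5.15 ± 0.16 was the largest of this list (adjusted p = 5.27e-10). Cldn5, which seals the tight junctions and was counted in the pan-endothelial list, was 20.5-fold higher (4.36 ± 0.16, adjusted p = 2.03e-09). The glucose transporter gene Slc2a1 was at 0.92 to 1.12 in stalk and at −2.63, −3.43 and −0.91 in nonvascular retina, and its difference of 3.34 ± 0.40 was 4.05 without replicate 3. For the amino acid transporter gene Slc38a5 the controls were at 1.37, 1.25 and 4.12, and the difference of 3.17 was 4.10 without replicate 3. Tfrc, the transferrin receptor gene, fell by 0.57. Tjp1, Spock2, Slco1a4, Abcb1a, Foxq1 and Slc22a8 were not called, with differences of −0.13 to 0.18.

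Barrier genes also differed between the tip and stalk samples, as did genes of other lists. Between these groups 10 of the 22 were called, against 2.79% of all genes. So were 9 of 17 pericyte and smooth muscle genes and 5 of 14 arterial and venous genes. Of pan-endothelial genes 8 of 32 were called, and of glycolysis genes 7 of 18. Since tip and stalk were both set against the same nonvascular arrays, the direct difference is the test. Foxf2 was at 1.29 ± 0.18 in tip (SD, n = 6), below the stalk mean of 2.63 ± 0.22 and above the nonvascular mean of −2.52 ± 0.32, and tip minus stalk was −1.34 (adjusted p = 0.00024). Cldn5, counted in the pan-endothelial list, was at 3.71 ± 0.24 in tip and 4.87 ± 0.17 in stalk (−1.16, adjusted p = 0.0008).

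Genes of caveolae, the membrane pits of endothelium and other cells, rose: 9 of 9 were higher, with a median of 1.85. With median centring 8 of 9 were higher and with the red channel alone 7. Over the alternative ways of processing the median was 1.275 to 2.456. Cavin1 was at −0.10, −0.38, −0.53 and −0.29 in stalk and at −4.11, −4.05 and −4.08 in nonvascular retina (13.5-fold, adjusted p = 1.02e-10), and Cav1 rose by 3.73 ± 0.16. Over the alternatives their lowest differences were 1.07 for Cavin1 and 1.90 for Cav1. Plvap, the diaphragm protein of fenestrae and a marker of leaky endothelium, was higher by 1.28 (adjusted p = 0.000252). Of 14 arterial and venous genes 7 were higher (50%) and 1 lower, with a median of 0.67. The guidance receptor gene Unc5b rose by 3.31, the arterial connexin gene Gja4 by 3.22, the apelin receptor gene Aplnr by 1.60 and the venous factor gene Nr2f2 by 1.31. The arterial ephrin gene Efnb2 had a difference of −0.17 (adjusted p = 0.617). Ackr1, a chemokine receptor of venules, went the other way. It was at 0.25 to 0.58 in stalk and at 1.47, 2.93 and 1.93 in nonvascular retina, and fell by 1.71 ± 0.26 (adjusted p = 0.000239).

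Pericyte and smooth muscle genes were higher in the same samples. Of 17 tested, of 19 listed, 13 were higher (76.5%) and 1 lower, with a median of 1.59. Pdgfrb, the receptor that draws pericytes to vessels, was at 2.57, 2.85, 3.06 and 2.96 in stalk and at −2.27, −1.99 and −2.22 in nonvascular retina. The arrays of each group lay within 0.5 of each other, and the difference was 5.02 ± 0.18, or 32.5-fold (adjusted p = 1.19e-09). Foxc1, a forkhead factor of mural cells, rose by 4.61 ± 0.14, the potassium channel gene Kcnj8 by 3.83, Cspg4 by 2.72 and Notch3 by 2.76. Rgs5, a regulator of G protein signalling that marks pericytes, was at 1.31 to 2.10 in stalk and 0.17 to 0.37 in nonvascular retina (3.01-fold, adjusted p = 6.62e-05). Genes of contractile smooth muscle varied. Acta2 rose by 1.55, near the list median, and Tagln by 0.82, while Myh11 (0.03, adjusted p = 0.775) and Cnn1 (0.14, 0.404) were not called. Other members of the list also gave small differences. Anpep rose by 0.69 and Des by 0.28, and Tbx18 was not called (0.53, adjusted p = 0.0627). Ebf1 fell. It was at 0.59 to 0.69 in stalk and at 2.95, 2.79 and 2.27 in nonvascular retina (−2.03 ± 0.20, adjusted p = 6.93e-06). The median of the list was 0.61 to 0.88 on the stalk arrays and −0.73 to −0.48 on the nonvascular arrays, and the part of mural cells in the other differences was not tested.

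Basement membrane and matrix genes followed the vessel genes. Of 29 tested, of 31 listed, 20 were higher (69%) and 0 lower, with a median of 1.60, or 0.92 with the mean of each gene's probes. Nid1, the nidogen that links laminin to collagen IV, was at 1.61, 1.61, 2.08 and 1.99 in stalk and at −4.24, −3.66 and −2.63 in nonvascular retina. Its difference of 5.33 ± 0.28, or 40.3-fold, was the largest of all genes tested (adjusted p = 2.77e-08). The chains of collagen IV rose, Col4a1 from −0.27 ± 0.28 to 3.48 ± 0.11 (13.5-fold) and Col4a2 by 2.52. The laminin genes Lamc1 and Lama4 rose by 3.21 and 2.95. Mgp, an inhibitor of calcification and of BMP signals, rose by 4.99 ± 0.25. Col18a1, the source of endostatin, was at 2.80 to 3.04 in stalk and at −1.90, −1.86 and 0.89 in nonvascular retina. The collagen chaperone gene Serpinh1 was at 1.64 to 1.80 and at −2.95, −2.91 and −0.11. In both genes replicate 3 lay apart from the other controls, and without it their differences of 3.88 and 3.71 were 4.80 and 4.65. Agrn was 1.94-fold higher by its fitted log ratio (adjusted p = 0.041) and was saturated on all stalk arrays, so its level there is only a lower limit. Of the interstitial collagens, Col1a1 rose by 2.17, Col5a1 by 1.75, Col3a1 by 1.60 and Col1a2 by 0.57 (adjusted p = 0.0332, and 0.105 without nonvascular replicate 3). Dcn (0.17) and Lum (−0.05), small proteoglycans that bind collagen, were not called, nor was the brightest probe of fibronectin Fn1 (0.25), whose other probes were called at 0.39 and 0.17. Of 20 integrin and adhesion genes 10 were higher (50%) and 1 lower, and with array brightness in the model 6 were higher. Itga4 rose by 2.13 and the junction gene F11r by 1.92, and Cdh2, the cadherin of neurons and pericytes, fell by 1.36.

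Among ligands and receptors of the VEGF and angiopoietin family, 7 of 14 genes were higher (50%) and 1 lower (median 0.41). Flt1 and Kdr are given above, and Tie1 rose by 1.84. Angpt2, the Tie2 ligand made in sprouting vessels, rose by 1.5 ± 0.35 (adjusted p = 0.00499), with an SD of 1.00 over the nonvascular arrays. Vegfa was at 0.21, 0.01, 0.20 and 0.18 in stalk and at −2.35, −2.06 and −0.34 in nonvascular retina. The groups did not overlap, but replicate 3 lay next to the stalk arrays, and the difference of 1.73 (adjusted p = 0.00227) was 2.35 without it. Other probes of Vegfa differed by 0.23 and 0.50 and were not called. Vegfb fell by 0.44 (adjusted p = 4.76e-05), and the co-receptor genes Nrp1 (−0.31) and Nrp2 (−0.05), the lymphatic receptor gene Flt4 (−0.01) and Angpt1 (0.06) were not called. Without nonvascular replicate 3, Nrp1 was called lower (−0.50, adjusted p = 0.0414).

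In the Notch pathway, by which tip cells restrain their neighbours, 9 of 19 genes were higher (47.4%) and 2 lower (10.5%). Their median was 0.17, and it was 0.46 with median centring, 0.49 with the processed ratios of the scanner software and 0.60 over genes above background on all 7 arrays. Jag1, the ligand of stalk cells, was at 1.14, 1.43, 1.09 and 1.63 in stalk and at −1.89, −1.56 and −1.92 in nonvascular retina (8.66-fold, adjusted p = 5.3e-09). The ligand gene Jag2 rose by 1.46, the receptor genes Notch3, Notch4 and Notch1 by 2.76, 1.68 and 1.58, and the feedback gene Nrarp by 1.90. Of the target genes, Hey1 rose by 1.04 and Heyl by 1.83, whose other probe differed by 0.28 and was not called, while Hes1 (0.10, adjusted p = 0.359) and Hey2 (−0.04, 0.886) were not called. Dll4, the ligand of tip cells, was at 0.10 to 0.35 in stalk and −0.03 to 0.07 in nonvascular retina and was not called (0.17, adjusted p = 0.135). Its call appeared with the processed log ratios of the scanner software (0.47, 0.0454) and with the red channel alone (0.47, 0.0147). The neurogenic ligand genes Dll1 and Dll3 fell by 0.65 and 1.22.

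Of 25 TGF-beta and BMP genes 11 were higher (44%) and 1 lower (median 0.53, and 0.77 without nonvascular replicate 3). With array brightness in the model 9 were higher and 0 lower, with a median of 0.48. Id1, a target of BMP signals in endothelium, was at 0.47 to 0.71 in stalk and at −4.02, −4.12 and −1.28 in nonvascular retina (3.71 ± 0.53, adjusted p = 0.000126, and 4.64 without replicate 3). The receptor genes Tgfbr2 and Bmpr2 rose by 2.07 and 1.17, the ligand gene Tgfb1 by 1.00 and the inhibitors Smad6 and Smad7 by 0.73 and 0.91. Tgfbr1 fell by 1.02, and Acvrl1 was not called (0.08).

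Norrin and Wnt genes had 11 of 23 higher (47.8%) and 2 lower (median 0.59). The receptor of Norrin, Fzd4, was at 0.61, 0.88, 0.67 and 0.91 in stalk and −0.60, −0.36 and −0.51 in nonvascular retina (2.39-fold, adjusted p = 0.000635). Its co-receptor Lrp5 and partner Tspan12 rose by 1.16 and 1.22, and the nuclear factors Lef1, Tcf7, Tcf7l1 and Tcf7l2 by 2.11, 1.81, 2.06 and 1.74. Ndp, which encodes Norrin, was not called (−0.04, adjusted p = 0.904). Axin2, a common readout of Wnt signals, fell by 0.79 (adjusted p = 0.00873).

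Genes of cell division were higher. Of 31 tested, of 33 listed, 27 were higher (87.1%) and 0 lower, with a median of 1.25. Cdc20, an activator of the anaphase complex, was at 0.89, 0.06, 0.58 and 0.50 in stalk and at −2.26, −2.81 and −1.24 in nonvascular retina (6.11-fold, adjusted p = 1.52e-05). The kinase gene Plk1 was at 0.09 to 0.19 in stalk and at −1.72, −1.80 and −0.86 in nonvascular retina (1.61 ± 0.17). The helicase gene Mcm3 rose by 2.33, Tyms by 1.97 and Top2a by 1.38, while Pcna (0.04), Cdk1 (0.12), Ccne2 (0.06) and Cenpe (0.18) were not called. Nonvascular replicate 3 had the highest list median of the controls, −1.42 against −2.06 and −2.49, and all stalk arrays were above it, at −0.63 to −0.50. Without that replicate 27 of 31 were again higher, with a median of 1.48.

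**Figure D3:**
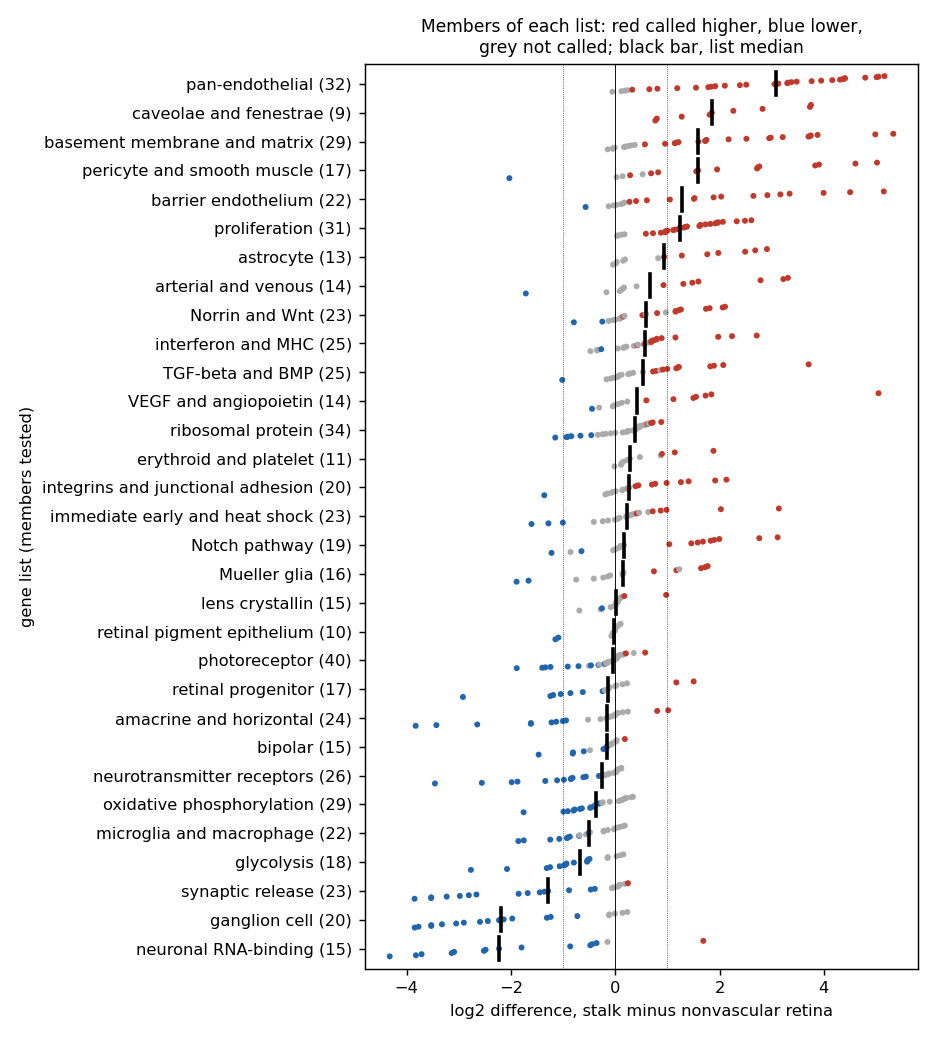
Difference between stalk and nonvascular retina on the log2 scale (horizontal axis) for each tested member of 31 gene lists, in order of the list medians (black bars). Red points were called higher, blue points lower and grey points were not called, and dotted lines mark a 2-fold difference. The list medians run from 3.09 for pan-endothelial genes to −2.23 for neuronal RNA-binding genes.

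Ganglion cell genes were the retinal neuron list with the lowest median. Of 20 tested, 15 were lower in stalk (75%, against 18.6% of all genes) and 0 higher, with a median difference of −2.18. Nefl, the light neurofilament, was at 1.71, 1.46, 1.19 and 3.06 in stalk and at 5.29, 5.92 and 5.66 in nonvascular retina (13.7-fold lower, adjusted p = 3.33e-05). Slc17a6, the vesicular glutamate transporter of ganglion cells, was at 0.34, 0.34, 0.37 and 0.70 in stalk and at 3.47, 4.37 and 3.44 in nonvascular retina. It was 10-fold lower (adjusted p = 3.07e-07). The growth cone gene Gap43 was at −0.08 to 0.00 in stalk and 2.84 to 3.23 in nonvascular retina (−3.05 ± 0.11, adjusted p = 2.03e-09), and was well above background on 1 of the 4 stalk arrays. Thy1, a surface glycoprotein of ganglion cells, was 14.4-fold lower in stalk by its fitted log ratio (−3.85 ± 0.50, adjusted p = 6.18e-05). It was saturated on all nonvascular arrays, so its level there is only a lower limit. Stalk replicate 3 was the lowest stalk array for it, at −2.89 against −1.16 to −0.32. Pou4f1, Pou4f2 and Pou4f3, transcription factors that define ganglion cells, were not called (−0.11, −0.12 and 0.14), nor were L1cam and Ebf3.

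Genes of synaptic release were lower. Of 23 tested, of 25 listed, 15 were lower (65.2%) and 1 higher, with a median of −1.29 (−0.98 without nonvascular replicate 3). Syt1, the calcium sensor of vesicle fusion, was at 1.57, 1.95, 0.33 and 1.62 in stalk and at 5.00, 5.38 and 5.26 in nonvascular retina (14.4-fold lower, adjusted p = 4.14e-06). Snap25, a fusion protein of the synapse, was at 1.79, 1.88, 0.41 and 2.73 in stalk and at 4.94, 5.37 and 5.38 in nonvascular retina (−3.53 ± 0.44, adjusted p = 3.93e-05). In both, stalk replicate 3 was lowest and still no arrays overlapped. Rab3a fell by 3.53, the complexin gene Cplx1 by 3.23 and Vamp2 by 2.98. The active zone gene Rims1 rose by 0.24, and Slc17a7, Bsn and the ribbon synapse genes Cplx3 and Cplx4 were not called (0.03 to 0.09). Of 26 transmitter receptor genes 13 were lower (50%) and 0 higher, with a median of −0.26. The AMPA receptor gene Gria2 was at 0.16 to 0.79 in stalk and 3.65 to 4.11 in nonvascular retina (11-fold lower), and the NMDA receptor genes Grin1, Grin2a and Grin2b were not called (0.01 to 0.06).

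Neuronal RNA-binding proteins, which set the splicing and stability of neuronal transcripts, had the lowest median of all lists. Of 15 tested, of 18 listed, 13 were lower (86.7%) and 1 higher, with a median of −2.23. Elavl2, which binds AU-rich elements, was at −1.53, −0.96, −0.43 and −0.18 in stalk and at 3.75, 3.64 and 3.26 in nonvascular retina. It had the largest fall of all named genes, 20-fold (−4.32 ± 0.38, adjusted p = 1.91e-06). Celf3 and Celf4 fell by 3.82 and 3.71, Rbfox1 by 3.09 and Rbfox3, which encodes the marker NeuN, by 1.80. Ptbp1, the splicing repressor that falls as neurons form, was the member that rose. It was at 0.13, 0.18, −0.14 and 0.29 in stalk and at −1.65, −2.07 and −1.0 in nonvascular retina (3.22-fold, adjusted p = 4.02e-05). Its neuronal paralog Ptbp2 fell by 0.86. Among genes of the cytoskeleton and vesicles named by the size of their change, Mapt (tau) fell by 4.08 ± 0.19, Synpr by 4.07, Ina by 3.78 and Syt13 by 4.19. Mllt11 was at −1.50 on stalk replicate 3 and at 0.51 to 0.71 on the other stalk arrays, and fell by 4.22. Ndrg4 fell by 4.24 at its brightest probe, but its other probe was called higher, by 0.19, so its probes were called in opposite directions.

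Other retinal neurons gave mixed results. Of 24 amacrine and horizontal cell genes 9 were lower (37.5%) and 2 higher, with a median of −0.16. The inhibitory transmitter genes were among the lower ones. Slc32a1, which loads GABA and glycine into vesicles, was at 0.42, 0.63, 0.14 and 0.60 in stalk and at 4.33, 4.15 and 4.34 in nonvascular retina (14.2-fold lower, adjusted p = 8.43e-08). Gad1, which makes GABA, fell by 1.62 ± 0.09. The glycine transporter gene Slc6a9 and Septin4 rose, by 0.81 and 1.02. Of 15 bipolar cell genes 8 were lower (53.3%) and 1 higher (median −0.16), and with array brightness in the model 4 were lower. Grik1, a kainate receptor gene, was 1.52-fold lower by its fitted log ratio (adjusted p = 0.00076). It was not well above background on any stalk array, so its level there is only an upper limit.

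Photoreceptor genes were called about as often as genes in general. Of 40 tested, of 42 listed, 9 were lower (22.5%, near the 18.6% of all genes) and 2 higher, with a median of −0.04. Crx, a transcription factor of photoreceptor precursors, was not well above background on any stalk array and was so on 2 nonvascular arrays. The rod factor gene Nrl fell by 0.19 (adjusted p = 0.0333, and 0.151 without nonvascular replicate 3), and Rcvrn by 0.47 (0.0459). Without that replicate the difference of Rcvrn was −0.18 (0.0571). Larger falls were those of Unc119 (1.89 ± 0.15), which carries lipid-modified proteins, the disc protein gene Rom1 (1.40) and Pdc (1.34, and 0.85 without nonvascular replicate 3), which binds transducin. Without nonvascular replicate 3, 6 were lower and 3 higher. With brightness in the model 3 were lower.

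**Figure D4:**
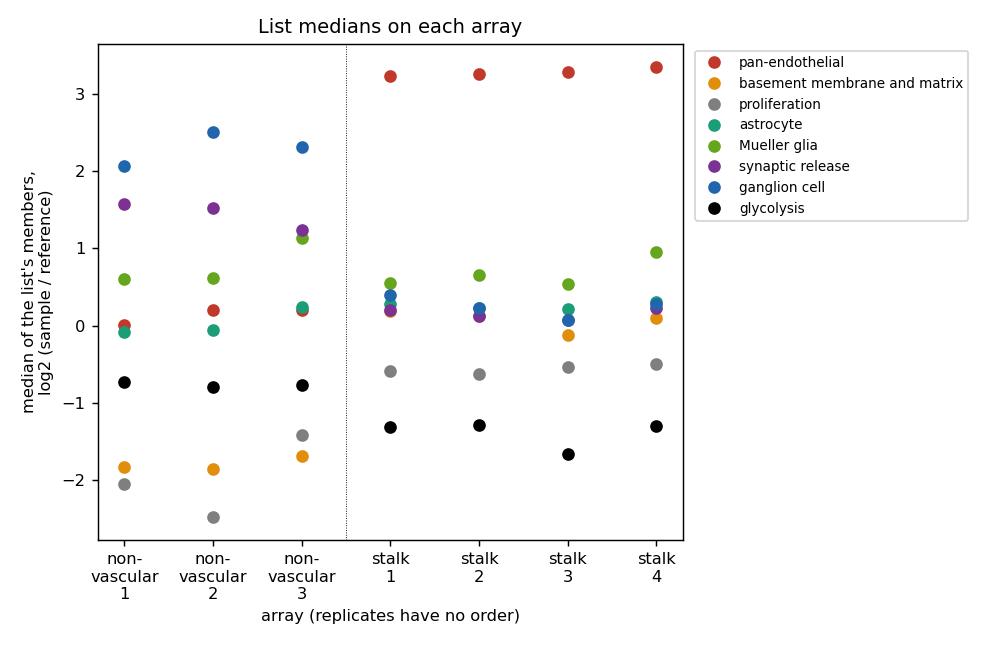
Median log2 ratio of sample over reference over the tested members of 8 gene lists (vertical axis) on each of the 3 nonvascular and 4 stalk arrays. The pan-endothelial medians are 0.01 to 0.20 on nonvascular and 3.24 to 3.36 on stalk arrays, and nonvascular replicate 3 has the highest proliferation, Mueller glia and astrocyte medians of the controls.

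Glial genes did not follow the neurons. Of 13 astrocyte genes 7 were higher (53.8%) and 0 lower, with a median of 0.94. Without nonvascular replicate 3, 8 were higher, with a median of 1.33. With array brightness in the model 5 were higher, with a median of 0.78. Pdgfra, the receptor of retinal astrocytes and their precursors, was at 2.31, 2.46, 2.58 and 2.63 in stalk and at −1.18, −0.74 and 1.94 in nonvascular retina. Replicate 3 lay close to the stalk arrays, and the difference of 2.49 ± 0.54 (adjusted p = 0.00302) was 3.46 without it. S100b was at 5.66 to 5.98 in stalk and at 1.89, 2.22 and 4.45 in nonvascular retina (2.91, and 3.71 without replicate 3). The gap junction gene Gja1, with controls close to each other, rose by 1.77 (adjusted p = 5.53e-08), and Vim rose by 2.68. Gfap was not called: it was at −0.01 to 0.28 in stalk and −0.08 to 0.05 in nonvascular retina (0.19, adjusted p = 0.152), nor were Pax2 (0.15) and Aldh1l1 (0.82, 0.121). Without nonvascular replicate 3, Aldh1l1 was called (1.33, adjusted p = 0.0052). The list median was 0.21 to 0.31 on the stalk arrays and −0.08 to 0.24 on the nonvascular arrays, which overlapped through replicate 3, and the part of astrocytes in the other results was not tested.

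Of 16 Mueller glia genes 5 were higher (31.2%) and 2 lower (12.5%), with a median of 0.15, and the controls differed among themselves. The median was 0.05 without nonvascular replicate 2 and 0.06 without stalk replicate 4, and with array brightness in the model 3 were higher. Rlbp1, a retinoid-binding protein of Mueller glia, was at 3.38, 3.71, 4.03 and 3.34 in stalk and at 1.97, 1.36 and 3.83 in nonvascular retina. Replicate 3 lay within the stalk range, and Rlbp1 was not called with it (1.23, adjusted p = 0.0526) and was without it (1.95, 0.000106). Sox9 and the glutamate transporter gene Slc1a3 rose by 1.77 and 1.65, and Clu and Gpr37 fell by 1.66 and 1.89. Aqp4, Kcnj10 and Apoe were not called. Of 17 tested progenitor genes, of 18 listed, 7 were lower (41.2%) and 2 higher (11.8%). Neurod1, a factor of young neurons, fell by 2.92, and Pax6 by 0.62. The groups overlapped for Rax. Rax and Lhx2, which rose by 1.5 and 1.17, had nonvascular SDs of 1.32 and 0.85.

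**Figure D5:**
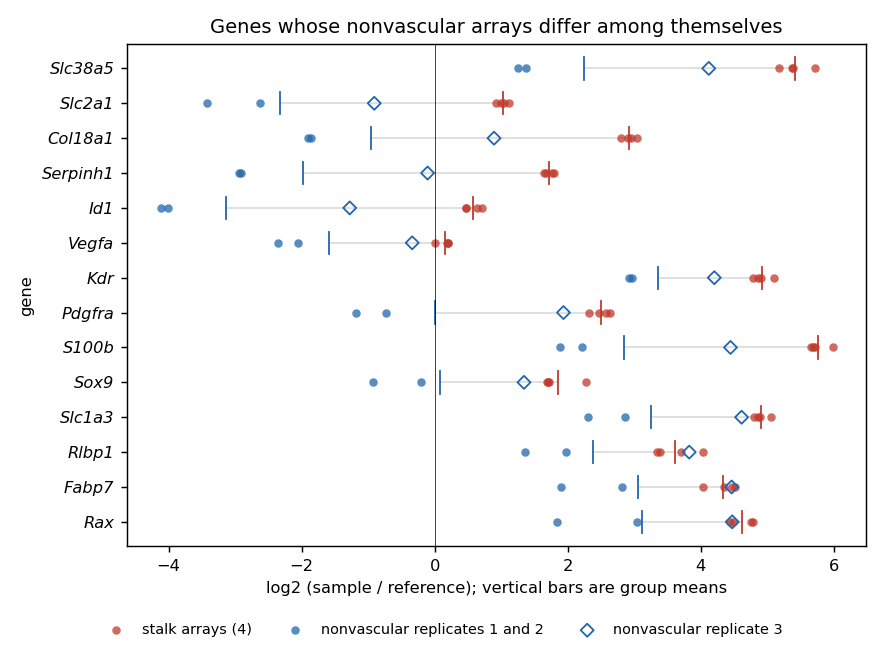
Log2 ratio of sample over reference (horizontal axis) on each stalk array (red), nonvascular replicates 1 and 2 (blue) and nonvascular replicate 3 (open diamond) for 14 genes chosen because their controls differ among themselves. Bars are group means. Replicate 3 lies nearer to the stalk arrays than the other controls do for each of these genes, and within the stalk range for Rlbp1, Fabp7 and Rax.

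Microglia genes included lower members and the blood and interferon lists mostly higher ones among those called. Of 22 microglia and macrophage genes tested, of 23 listed, 9 were lower (40.9%) and 0 higher, with a median of −0.51. P2ry12, a purine receptor of resting microglia, was at 1.42, 1.34, 1.60 and 2.17 in stalk and at 3.34, 3.63 and 3.50 in nonvascular retina (3.62-fold lower, adjusted p = 5.43e-05). The complement genes C1qa and C1qb fell by 1.25 and 0.69, and Cx3cr1 (−0.01), Ptprc (−0.02) and C1qc (−0.14) were not called at their brightest probes. Another probe of Cx3cr1 was called at −0.31 (adjusted p = 0.0445) and another of Ptprc at 0.17 (0.0119). Csf1r fell by 0.87 at its brightest probe and its other probes were called at 0.20 and −0.20. Of 11 erythroid and platelet genes 3 were higher (27.3%, against 11.3% of all genes) and 0 lower. They were the hemoglobin genes Hba-a1 (1.14) and Hbb-bt (0.90, not called without nonvascular replicate 3) and the platelet factor gene Pf4 (1.88 ± 0.35, adjusted p = 0.00117). Of these 3, 1 was called in the model that holds array brightness. Of 25 interferon and MHC genes 13 were higher (52%) and 1 lower, with a median of 0.58. Irf1 was at −1.04 to −0.50 in stalk and −3.62 to −3.18 in nonvascular retina (6.56-fold, adjusted p = 5.76e-08), and Ifitm3 and Ly6c1, which endothelium expresses, rose by 2.24 and 1.97. Pigment epithelium genes had 2 of 10 lower (20%, near the 18.6% of all genes) and 0 higher, with a median of −0.02. Lens crystallin genes had 2 of 15 higher (13.3%, near the 11.3% of all genes) and 1 lower, with a median of 0.02.

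Part of the genes of glycolysis and oxidative phosphorylation were lower in stalk. Of 18 glycolysis genes 13 were lower (72.2%) and 0 higher, with a median of −0.67. Eno2, the neuronal enolase, was at −0.87, −0.87, −1.05 and −0.54 in stalk and at 2.02, 2.03 and 1.76 in nonvascular retina (6.81-fold lower, adjusted p = 5.97e-08). Gapdh was at −1.16 to −0.98 in stalk and at 0.15 to 0.19 in nonvascular retina (2.38-fold lower), and Pfkp fell by 2.08 and Pgk1 by 1.07. Ldha, Pfkfb3, Hk1 and Eno1 were not called (−0.15 to 0.16). Of 29 oxidative phosphorylation genes 15 were lower (51.7%) and 0 higher (median −0.36), with Sdhb at −1.76 and Ndufa1 at −0.99. With median centring 8 of these were lower, and with the red channel alone 9 were lower and 4 higher. Ribosomal protein genes had 4 of 34 higher (11.8%) and 6 lower (17.6%), near the shares of all genes. With median centring 19 were higher and 3 lower, and with array brightness in the model none was higher and 1 was lower, with a median of −0.07, so no direction is given for them. Among 23 immediate early and heat shock genes 6 were higher (26.1%, against 11.3% of all genes) and 3 lower (13%, against 18.6%). The flow-responsive factor gene Klf4 was at −1.01, −0.46, −0.76 and −0.26 in stalk and at −3.77, −3.67 and −3.86 in nonvascular retina (8.81-fold, adjusted p = 1.86e-07). Klf2, another such factor, fell by 1.00 at its brightest probe and rose by 4.82 at its other probe, so its direction is not settled. The heat shock genes Hspa1a and Hspb1 fell by 1.61 and 1.28.

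Other named genes of vessels gave calls in part. Esm1, a proteoglycan secreted by sprouting endothelium, was at 1.60, 1.65, 1.59 and 2.25 in stalk and at −1.92, −1.58 and −1.72 in nonvascular retina (11.4-fold, adjusted p = 3.57e-08). Cxcr4, the chemokine receptor, was at 0.58, 0.30, −0.33 and 0.71 in stalk and at −0.40, −0.85 and 0.20 in nonvascular retina. The groups overlapped, and it was not called (0.67 ± 0.25, adjusted p = 0.0625). It was called without nonvascular replicate 3 (0.94, 0.0101) or without stalk replicate 3 (0.88, 0.00769), and its other probe differed by 0.01. Prnd, a prion-like protein of endothelium, was at 6.18, 5.58, 6.32 and 5.75 against 0.42, 0.81 and 1.24 (35.2-fold), and Thbd, the thrombomodulin gene, rose by 4.53 ± 0.16.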

How the data were processed

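RNA of 13 samples was measured on Agilent mouse arrays, 1 array each, after isolation with a PicoPure kit per the labels. Per the file headers, the deposited mean and background intensity of each spot came from Agilent Feature Extraction 8.5.1.1 (also named in the submitters' processing notes), with no normalization. The log10 ratio that the authors deposited in the same files is dye-normalized, and their deposited value table holds its antilog, a linear ratio; both served as alternatives. The authors' genome build is not given in the sources used here. Of 41174 probes, 22072 were named through their own RefSeq accession, 135 through another, 755 through their description and 18212 kept the name in the files.

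Intensities were background-corrected (normexp, offset 50) and loess-normalized in limma 3.58.1 (R 4.3.3). Control spots had weight 0 and outlier spots were left out. The probe brightest over the 13 arrays stood for its gene and had to be well above background in red on at least 3 of them. The fit held a mean for each of the 3 groups over the 13 arrays, p-values were adjusted by Benjamini-Hochberg over all genes, and a gene was called at 0.05. The steps were tested on simulated data. The 31 gene lists and the members compared were chosen with earlier results of these data known, so list counts are descriptions. Named genes are 24 fixed ones (Hbb-b1 and Mki67 were not tested), the 12 largest called differences in each direction among genes above background throughout the group where they are higher, and at most 3 members from a list. Some of these genes are not reported here. Other list members are named as examples, chosen after their values were seen. The number of arrays limits the precision. Same-numbered stalk and nonvascular samples showed little shared deviation, which alone cannot settle whether they came from the same animals. The Y chromosome gene Eif2s3y, given below, lay on opposite sides in every such pair. Replicate numbers were left out of the main fit. Figures were drawn with matplotlib.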

Additional observations from a re-analysis of the deposited data

Results flagged for a closer look

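In 8 of 157 sets of stalk values (124 genes, 31 list medians and 2 array measures), 1 array lay far from the other 3, and chance gives about 1 in 20. The group of 3 nonvascular arrays was not searched. These were Esm1 on stalk replicate 4 (2.25, others 1.59 to 1.65), Vegfa on replicate 2 (0.00532, others 0.184 to 0.205) and Sox7 on replicate 4 (3.79, others 3.98 to 4.02). On stalk replicate 3 they were Mllt11 (−1.5, others 0.514 to 0.713), C1qb (0.00266, others 0.114 to 0.127), Syp (0.0706, others 0.349 to 0.359) and the median of glycolysis genes (−1.67, others −1.32 to −1.3). On replicate 1 it was the median of TGF-beta and BMP genes (−0.0516, others 0.025 to 0.0384).

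For 12 named genes the difference from nonvascular retina was not the same in tip as in stalk, by the direct test of tip minus stalk (limma, adjusted p under 0.05) and by at least 2-fold. Lower in tip were Lsr (−3.026), Mfsd2a (−2.969), Klf4 (−2.204), Gja4 (−1.916), Foxf2 (−1.341), Cldn5 (−1.158), Foxc1 (−1.149), Ly6c1 (−1.147), Jag1 (−1.07) and Lef1 (−1.008). Higher in tip were Esm1 (2.869) and Cxcr4 (1.466), which was not called between stalk and nonvascular retina.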

How the results depend on the processing

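Of 9561 genes called, 6530 to 9512 were called with the same sign under each alternative that kept genes as units. With array brightness in the model, 6800 genes were called in all, the fewest of these fits. Counts of genes higher were 2404 at an adjusted p under 0.01, and 2771 to 3702 when 1 array was left out. Genes higher by at least 2-fold were 1864 from the scanner software's log ratios and 1868 from the deposited ratios, against 1227. All other counts of the comparison stayed within 1.5 times. The labels do not say whether same-numbered samples share more than a number. With the replicate block 3113 genes were higher and 8487 called, 8145 of them shared. The correlations of same-numbered stalk and nonvascular samples were −0.0106, 0.0383 and 0.0821. A scan day block was not run, since only tip replicate 5 was scanned on another day. For 124 named genes, 3120 of 3218 values kept direction and side of the threshold, 67 lost the call, 14 gained it and 17 changed sign; the cause was not tested. Crx became −0.0282 without background correction, −0.8866 and −0.4503 from the scanner software's and the deposited ratios, −0.1612 in the red channel alone, −0.004536 with the replicate block and −0.01823 to 0.03593 leaving out arrays. Cx3cr1 became 0.00322 with median centring, 0.1109 from both processed ratios, 0.326 in the red channel alone and −0.03459 to 0.0324 leaving out arrays. In the red channel alone Pou4f1 became 0.01247 and Pcp2, called lower, 0.1678. From the scanner software's log ratios the list medians of pericyte, VEGF and integrin genes were 2.66, 0.78 and 0.51, against 1.59, 0.41 and 0.26. Nrl, Rcvrn, Hbb-bt and Crybb3 lost their call under several alternatives. The number of arrays limits precision.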

Other observations

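Genes outside the lists, chosen here after their values were seen, added to the vessel side. Cd248, a marker of pericytes and perivascular fibroblasts, was at 1.81, 1.46, 1.87 and 1.55 in stalk and at −2.90, −2.70 and −2.78 in nonvascular retina (22.1-fold higher, adjusted p = 2.22e-09). Adgra2, the receptor through which brain endothelium reads Wnt7 signals, rose by 3.87 ± 0.22, the ETS family repressor gene Elk3 by 4.02 and the matrix gene Igfbp7 by 4.17. Genes for endothelial surface proteins rose as well: Thsd1 by 3.60, the protein C receptor gene Procr by 3.50 and Tm4sf1 by 3.49. The transcription factor genes Tbx1, Gata2, Mef2c, Foxo1 and Foxc2 rose by 3.99, 2.77, 2.75, 2.64 and 2.35. The zinc transporter gene Slc39a8 rose by 3.62 and was lower in tip than in stalk by 1.67 (adjusted p = 0.00014).

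On the neuronal side, Reln, which guides neuron positioning, was at 1.33, 0.74, 0.12 and 1.17 in stalk and at 4.13, 4.40 and 4.35 in nonvascular retina (11-fold lower, adjusted p = 2.54e-07). The ganglion cell genes Isl2 and Rbpms2 fell by 3.36 and 3.40, Rxrg by 3.10, the retinoic acid-binding protein gene Crabp1 by 3.20 and the cell adhesion gene Dscam by 3.22. Slc12a5, the chloride exporter of neurons, fell by 3.21, and Mstn, which encodes myostatin, was at 0.01 to 0.33 in stalk and at 3.96, 3.63 and 3.00 in nonvascular retina (10.4-fold lower). Crip1 differed widely among the nonvascular arrays, at 0.23, −0.01 and 3.25, beside 3.42 to 3.62 in stalk.

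A gene of the Y chromosome divided both groups. Eif2s3y was at −2.13, 1.22, 1.84 and 2.09 on the stalk arrays and at 1.34, −2.22 and −2.21 on the nonvascular arrays. Ddx3y, also on the Y chromosome, was at −2.05, 0.33, 1.06 and 0.54 and at −0.62, −2.03 and −2.32. Stalk replicate 1 and nonvascular replicates 2 and 3 thus lay low for both, and the labels give no sex. In each same-numbered pair of stalk and nonvascular samples, Eif2s3y was low in either sample and high in its partner. Samples of the same single animal would share its sex. Nonvascular replicate 3 did not stand alone in these genes. Neither gene was called (adjusted p = 0.331 and 0.153), and the probe of Xist was at 0.11 to 0.32 over the 7 arrays without such a division.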
